A study of Mus musculus with 4 samples.

Results

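Type I interferon signalling was examined in single cells of the diseased ascending aorta through 39 genes, which are the interferon gene Ifnb1, both chains of its receptor and genes that the pathway uses or switches on. They were matched by symbol among the 55357 genes in the files, and all 39 were found. By role they are 1 interferon gene (Ifnb1), 2 receptor chains (Ifnar1 and Ifnar2), 5 transcription factors (Stat2, Irf9, Irf1, Irf7, Irf8), 3 nucleic acid sensors (Ifih1, Ddx58, Zbp1), 20 antiviral effectors, the feedback inhibitor Usp18 and 7 interferon-inducible GTPases. The mice were wild-type males given BAPN (β-aminopropionitrile, which blocks lysyl oxidase and so the cross-linking of elastic and collagen fibres) in their drinking water from 3 weeks of age at 1 g/kg per day for 4 weeks. This treatment, shared by all samples, produces the aortic dissection model (AD, 2 libraries), and the second group also received paquinimod, a compound that binds S100A9, by gavage at 10 mg/kg per day (AD_ABR, 2 libraries). No untreated aorta is among the samples, so levels before dissection were not analysed here. Each library is a droplet 3′ library in which every captured molecule counts once through its unique molecular identifier (UMI), whatever the length of the transcript. Levels are given as CPM, the UMIs of a gene scaled to the same total of UMIs in every class and library.

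Interferon beta is made by cells that detect foreign or misplaced nucleic acid. It binds the receptor of Ifnar1 and Ifnar2 on the same or neighbouring cells, and the receptor activates a complex that includes Stat2 and Irf9 and binds the interferon-stimulated response element of its target genes. Interferon gamma acts through another receptor, and the GTPases of the Gbp and Irg families respond strongly to it. In vessels, macrophages are a known source of interferon beta, and stromal cells are among those that respond.

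Promoters of 31 of the 39 genes were in the RefSeq table of mouse promoters (GRCm38.p6), each 300 bases long, from 250 before to 50 after the start site. Genes with no entry were Zbp1, Mx1, Mx2, Oas2, Rtp4, Parp14, Usp18 and Iigp1. Both strands were searched for the response element core (GAAA, any 2 bases, GAAA), for the gamma-activated site (TTC, any 3 bases, GAA) and for the NF-κB core (GGG, any 3 bases, TTCC), and matches that overlap each other were all counted. The 31 genes have 39 promoters in the table, since some have several starts. The response element core was in 18 of these 39 (46.2%), belonging to 17 genes, against 3.44% of all 32851 promoters in the table. The gamma-activated site was in 12 of the 39 (30.8%) against 8.30% of all, and the NF-κB core in 8 (20.5%) against 5.56%. These shares describe the letters in the window and say nothing about binding. Below are 4 promoters, 5′ to 3′ on the strand of the gene, chosen because the results turn on these genes: Ifnb1 (chr4:88522745-88523044, minus strand), Irf1 (chr11:53769764-53770063, plus strand, the first of its 2 starts), Rsad2 (chr12:26456403-26456702, minus strand) and Gbp2 (chr3:142620413-142620712, plus strand). Capitals mark the matches.
Ifnb1: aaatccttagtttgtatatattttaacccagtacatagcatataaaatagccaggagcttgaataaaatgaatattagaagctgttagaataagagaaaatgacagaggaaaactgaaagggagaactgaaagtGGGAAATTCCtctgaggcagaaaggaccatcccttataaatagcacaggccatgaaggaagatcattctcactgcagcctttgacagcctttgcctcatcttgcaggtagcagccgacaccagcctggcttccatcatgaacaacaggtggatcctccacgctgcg
Irf1: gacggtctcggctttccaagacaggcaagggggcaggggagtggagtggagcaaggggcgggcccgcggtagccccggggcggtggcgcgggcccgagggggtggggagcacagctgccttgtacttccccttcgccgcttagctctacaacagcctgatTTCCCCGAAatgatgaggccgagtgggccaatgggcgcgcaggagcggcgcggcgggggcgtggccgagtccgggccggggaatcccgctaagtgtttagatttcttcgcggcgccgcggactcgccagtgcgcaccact
Rsad2: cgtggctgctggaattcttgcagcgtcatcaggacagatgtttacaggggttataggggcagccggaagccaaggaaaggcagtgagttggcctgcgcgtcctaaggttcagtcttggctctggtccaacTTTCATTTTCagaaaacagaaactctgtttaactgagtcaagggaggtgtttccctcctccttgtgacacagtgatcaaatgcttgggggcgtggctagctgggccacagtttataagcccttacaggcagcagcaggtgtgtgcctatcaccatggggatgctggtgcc
Gbp2: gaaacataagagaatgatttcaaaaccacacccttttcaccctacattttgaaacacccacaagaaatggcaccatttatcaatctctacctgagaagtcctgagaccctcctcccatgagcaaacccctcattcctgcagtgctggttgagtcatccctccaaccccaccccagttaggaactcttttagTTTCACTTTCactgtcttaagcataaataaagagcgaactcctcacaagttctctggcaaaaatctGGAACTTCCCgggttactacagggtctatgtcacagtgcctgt
In Ifnb1 the capitals are the NF-κB core from -116 to -107, counted from the start site as 0. The Irf1 match is a gamma-activated site from -90 to -82, and the core of the response element is not among the letters of that window. The Rsad2 match is a response element core read on the other strand, from -120 to -111. Gbp2 holds a response element core from -59 to -50 and an NF-κB core from 7 to 16, both on the other strand.

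The libraries held 76142840 to 99572011 UMIs, and 37259 cells were kept (8451 to 9872 per library), with a median of 5268 and 7185 UMIs per cell in AD and 9452 and 8208 in AD_ABR. Cells were grouped by clustering that left out the 39 genes and the wider interferon list, and were named from marker genes. The sequence Rn18s-rs5, related to ribosomal RNA, took 53439 and 32280 CPM in AD and 18324 and 13725 in AD_ABR. Its lower level in AD_ABR passed the test in 6 of the 8 classes or clusters tested below, and its part in the results was not tested. Neutrophil-like cells were 1634 and 232 in AD and 21 and 10 in AD_ABR, and the neutrophil gene S100a8 was counted at 21.7 CPM in smooth muscle-like cells of AD replicate 1 against 0.518 to 1.72 in the other libraries. The labels do not say if each replicate is another animal, and p-values therefore measure only the spread between these libraries. Pairs of libraries shared 11 to 28 cell barcodes.

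Ifnb1 was found mostly in myeloid cells. Macrophage-like cells, the unnamed cluster 7 (led by Arg1 and Trem2, with all 8 macrophage markers detected) and dendritic-like cells together held 86.7 and 87.0% of all Ifnb1 UMIs in AD and 93.7 and 88.5% in AD_ABR. Macrophage-like cells alone held 46.8, 46.7, 82.7 and 66.3% in AD 1, AD 2, AD_ABR 1 and AD_ABR 2. The level of Ifnb1 over all cells was 37.8 and 9.21 CPM in AD and 2.24 and 4.84 in AD_ABR. Both AD libraries were higher, with AD 1 far above the rest. The difference did not pass the test (log2 fold change -2.61 ± 0.73 SE, adjusted p = 0.0924, edgeR). It was -1.31 without AD 1 and -3.25 without AD 2. In a sum over all cells, fewer cells of a type and less RNA per cell cannot be told apart.

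Within macrophage-like cells the groups did not overlap. Ifnb1 stood at 258 and 260 CPM in AD (1171 and 376 UMIs) and at 75.9 and 65.8 in AD_ABR (158 and 277 UMIs), a log2 fold change of -1.94 ± 0.19 SE. The edgeR adjusted p was 0.183, in a fit where 1 of 10804 genes passed. The difference passed with DESeq2 (adjusted p = 4.04e-07), where 133 of 9205 genes passed. It also passed in edgeR with no filter on low counts (adjusted p = 3.05e-12), where 866 of 22001 genes passed. With a library left out it was between -1.84 and -2.01. It passed without either AD library and missed without either AD_ABR library. Such a fit leaves 1 library in a group, so its p-value does not measure the spread within that group. The class is not the same mixture in all libraries. Cluster 14, led by Cd72, Ms4a7, Cx3cr1 and Ifnb1 itself, supplied 914 of the 981 macrophage-like cells of AD 1. In AD 2, AD_ABR 1 and AD_ABR 2 it supplied 83, 24 and 51 cells. Cluster 11, led by the resident macrophage genes Folr2 and Cd163, supplied most of the macrophage-like cells of those libraries (228, 292 and 656 cells). Cluster 11 held Ifnb1 at 98.9 and 250 CPM in AD and 77.8 and 67.03 in AD_ABR, and the difference there did not pass (-1.40, adjusted p = 0.134, edgeR), with AD 1 nearer to AD_ABR than to AD 2. Cluster 14 held it at 273 and 313 in AD and at 15.6 and 24.3 in AD_ABR, the last pair resting on 1 and 3 UMIs.

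**Figure D1:**
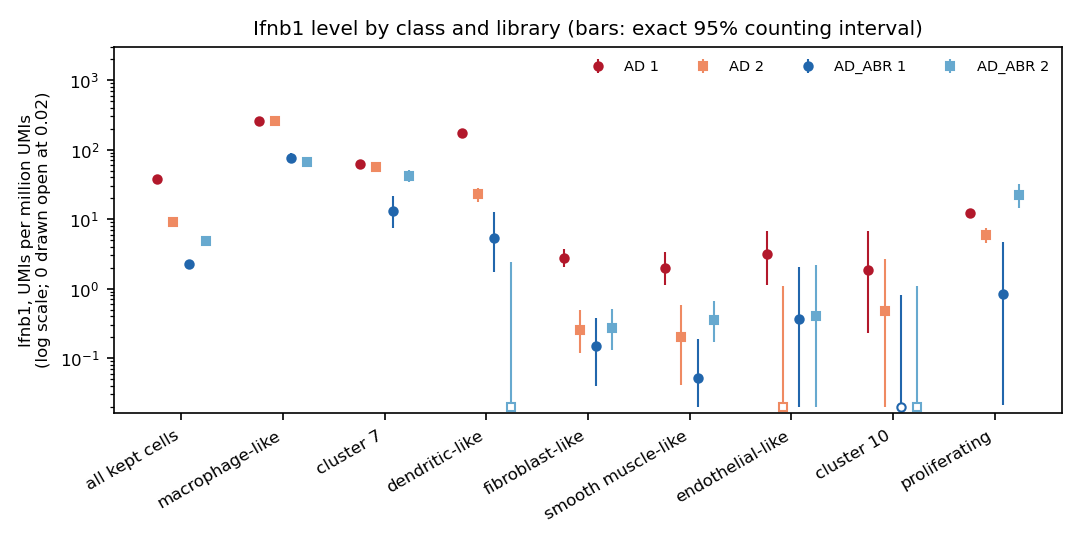
Ifnb1 level (CPM, log axis) in all kept cells and in each class or cluster tested, 1 point per library with its exact 95% counting interval. Macrophage-like cells sit highest, at 258 and 260 in AD and 75.9 and 65.8 in AD_ABR, and open points at the lower edge are 0.

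A smaller share of macrophage-like cells held Ifnb1 in AD_ABR. The class joins clusters 11 and 14, whose mixture differed between libraries as given above, and the shares were not split by cluster. A UMI of Ifnb1 was present in 22.3% (219 of 981) and 27.7% (86 of 311) of the macrophage-like cells of the AD libraries, against 7.28% (23 of 316) and 8.20% (58 of 707) of those of AD_ABR. The exact 95% intervals of both AD libraries (19.8 to 25.1% and 22.8 to 33.0%) lay above those of AD_ABR (4.67 to 10.7% and 6.29 to 10.5%), and these intervals cover counting error only. AD cells were the shallower ones, with medians of 4288 and 4669 UMIs against 6664.5 and 5744. With each cell thinned to 1000 UMIs the shares were 12.8, 13.5, 3.56 and 3.21%, after leaving out 41, 29, 7 and 21 shallower cells. In smooth muscle-like cells, which served as the background, 0.0572 to 1.71% of cells held a UMI at medians of 7830 to 10643 UMIs. Expression was uneven among the positive cells, with the 5 highest cells holding 12.3 and 23.7% of the class's Ifnb1 UMIs in AD and 69.0 and 33.9% in AD_ABR.

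Macrophage-like cells with an Ifnb1 UMI also carried more of Rsad2, Ifit1, Ifit2, Oasl1, Isg15 and Ifih1. The other antiviral effectors, such as Ifitm3 and Bst2, were not compared in this way. The class joins clusters 11 and 14, and the comparison was not split by cluster. Rsad2 encodes the antiviral enzyme viperin. In cells with an Ifnb1 UMI it was 3.22- and 6.69-fold higher than in the other macrophage-like cells of the same AD library. In AD_ABR it was 9.27- and 19.0-fold higher. Ifit1, an inhibitor of viral RNA translation, was 4.98- and 7.44-fold higher in AD and 8.50- and 8.79-fold in AD_ABR. Isg15, a ubiquitin-like modifier, was 2.66- to 4.38-fold higher across the libraries, and the RNA sensor gene Ifih1 2.08- to 4.43-fold. The receptor gene Ifnar1 had ratios of 0.760 to 1.07, and Irf1 of 0.917 and 0.843 in AD and 1.13 and 1.92 in AD_ABR. Cells with an Ifnb1 UMI were deeper in each library, for example a median of 4728 against 4199 UMIs in AD 1. These ratios describe cells within a library and carry no test.

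**Figure D2:**
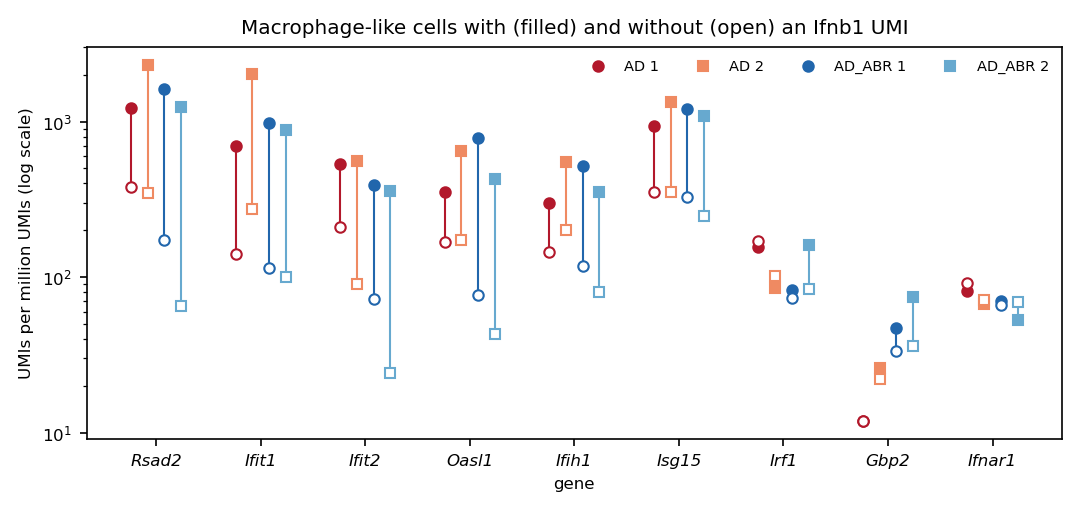
Levels of 9 genes (CPM, log axis) in macrophage-like cells with (filled) and without (open) an Ifnb1 UMI, 1 pair per library. The antiviral genes Rsad2, Ifit1, Ifit2, Oasl1, Ifih1 and Isg15 are higher in Ifnb1-positive cells in each library, and Ifnar1 is not (ratios of 0.760 to 1.07).

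The other classes with Ifnb1 UMIs differed more between replicates. Dendritic-like cells held it at 174 and 22.7 CPM in AD and at 5.36 and 0 in AD_ABR. The AD libraries were higher, but 62 of the 76 UMIs of AD 2 came from 1 cell, and the 0 of AD_ABR 2 allows up to 1.96 (3 UMIs). Cluster 7 held 63.2 and 55.7 in AD and 13.2 and 41.8 in AD_ABR (log2 fold change -0.99 ± 0.39 SE, adjusted p = 0.227, edgeR). Proliferating cells held 12.1 and 5.93 CPM in AD and 0.845 and 21.9 in AD_ABR (158, 67, 1 and 26 UMIs; 0.31 ± 0.93, adjusted p = 0.855), with AD_ABR 2 the highest. Lymphatic endothelial-like cells gave 70, 24, 0 and 1 UMIs, and neutrophil-like cells 15 in AD 1 and none in the other libraries. In neutrophil-like cells of AD 1 this was 5.78 CPM, beside 37.8 over all cells. That is within 2 times the level that RNA free in the droplets would give.

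The receptor chains were found in all classes tested, and neither passed the test in any. Ifnar1 was highest in cluster 7 (113 and 115 CPM in AD, 105 and 104 in AD_ABR) and low in smooth muscle-like cells (18.1, 15.2, 14.95 and 14.4). Ifnar2 stood at 155, 169, 163 and 156 in cluster 7 and at 32.7, 29.7, 34.7 and 38.1 in smooth muscle-like cells. Over all cells Ifnar1 was at 50.1 and 37.3 in AD and 23.6 and 26.8 in AD_ABR, without overlap (log2 fold change -0.69 ± 0.16 SE, adjusted p = 0.0755). Within macrophage-like cells it was at 89.8, 70.4, 66.3 and 67.9 (adjusted p = 0.496).

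Among the members, Ifitm3, which blocks entry of enveloped viruses, had the highest level in most classes, at a mean of 1487 CPM in macrophage-like, 1478 in dendritic-like, 1253 in fibroblast-like and 285 in smooth muscle-like cells. In smooth muscle-like cells its 4 values were 283, 285, 288 and 285. Bst2, which tethers budding virus to the cell, and Irf1, a transcription factor induced by both kinds of interferon, were among the 3 highest members in smooth muscle-like, fibroblast-like and endothelial-like cells. Irf8, a factor of myeloid and B cell development, had means of 456 in natural killer-like, 287 in dendritic-like and 277 in B-like cells and 0.536 to 1.61 in the smooth muscle-like libraries. Thinned to 1000 UMIs, 25.9 to 46.5% of macrophage-like cells held UMIs of at least 3 of the 20 effectors, against 3.71 to 7.82% of fibroblast-like and 0.142 to 0.432% of smooth muscle-like cells. The groups overlapped in that share in macrophage-like and smooth muscle-like cells, while in fibroblast-like cells AD stood at 3.71 and 5.20% and AD_ABR at 7.82 and 5.31%. Without thinning the shares were 75.2 to 88.3, 55.5 to 65.3 and 9.15 to 14.97%.

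**Figure D3:**
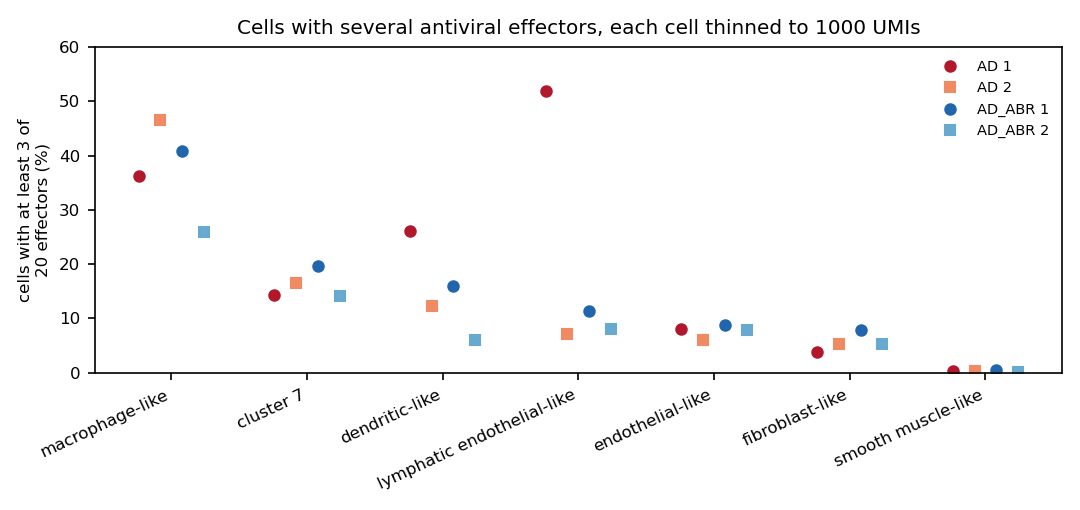
Share of cells (%) with UMIs of at least 3 of the 20 antiviral effectors after thinning each cell to 1000 UMIs, 1 point per library. The groups overlap in macrophage-like cells (36.3 and 46.5% in AD, 40.8 and 25.9% in AD_ABR), and lymphatic endothelial-like cells of AD 1 stand apart at 51.9%.

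Over all kept cells none of the 39 members passed the edgeR test. An unadjusted p under 0.05 was held by 14 of them, and by 6321 of all 20196 genes. Across all 20196 genes tested, 3.38% passed, 2.4% lower and 0.975% higher. DESeq2 called 9 members lower, where it called 1958 of 18807 genes lower and 1631 higher. The counts changed with a library left out. The median log2 fold change of the members was -0.34, beside -0.03 for all genes. Among the effectors the largest differences were those of Rsad2, at 122 and 43.5 CPM in AD and 11.4 and 16.6 in AD_ABR (log2 fold change -2.44, adjusted p = 0.0626), the next being Oasl1 (-2.17) and Ifit1, at 137 and 48.1 against 16.1 and 23.1 (-2.12, 0.0738). For both genes AD 1 was the highest library and both AD_ABR libraries were below AD 2.

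Among smooth muscle-like cells, the main cell type of the aortic media, there were 8 members that fell and 1 that rose among the 34 that could be tested. Of all 14772 genes tested there, 15.5% passed, 8.29% lower and 7.19% higher. In this fit the share of members that fell was above the share of all genes and the share that rose below it. With library sizes alone as scaling the split over all genes was 1711 lower and 747 higher. Ifnb1, Ifi44, Mx1, Oas1a and Oas2 were too low to test. The median of the tested members was -0.38 on the log2 scale, beside -0.02 for all genes. The class joins cluster 0, led by Mylk4, with 229 and 849 cells from the AD libraries against 1877 and 1892 from AD_ABR, and cluster 1, led by Des and Tnnt2, with 646 and 1075 against 1618 and 946, so its mixture differed between groups. The count of members that fell was 4 with DESeq2, where 525 of 12753 genes fell, and it changed with a library left out. With the expected RNA free in the droplets taken off, 5 members fell and 4 rose. Of all 14327 genes tested in that fit, 1116 fell and 968 rose, so both shares of members lay above those of all genes. In the main fit 3 of the members that fell were near the level of such RNA.

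The clearest was Irf1. It stood at 92.3 and 106 CPM in AD and 50.8 and 49.8 in AD_ABR (log2 fold change -0.91 ± 0.12 SE, adjusted p = 5.46e-05, edgeR). Each AD_ABR library was below both AD libraries. The GTPase Iigp1, which acts on vacuoles of intracellular parasites, was at 17.0 and 14.8 in AD and at 7.41 and 4.18 in AD_ABR (-1.35 ± 0.22, 0.00268). Gbp7 was at 8.30 and 7.15 against 3.89 and 3.39 (-0.99 ± 0.20, 0.00286), and Gbp5, a GTPase that promotes inflammasome assembly, at 2.28 and 1.32 against 0.622 and 0.357 (-1.67 ± 0.43, 0.0133). Irf1, Iigp1 and Gbp7 passed in each of 14 alternative analyses, and Gbp5 was lost in 3 (with DESeq2, without AD 1 and without AD_ABR 2). Within cluster 0 Irf1 was at 55.0 and 79.5 CPM in AD and 34.99 and 36.1 in AD_ABR, and within cluster 1 at 105 and 124 against 67.4 and 76.4. The groups did not overlap in either cluster for Irf1, Iigp1, Gbp7 or Gbp5, whereas they overlapped for Ddx58 in cluster 0 and for Bst2 in cluster 1. These genes were picked by the test on the sum of the same cells, so the lack of overlap is not separate support. Its share over all genes was not counted. The summed macrophage markers in these cells were 40.8 and 25.2 CPM in AD and 25.5 and 38.1 in AD_ABR, with all 8 detected and the groups overlapping. Other immune lists did not overlap. Summed dendritic markers were 82.5 and 58.1 in AD and 30.3 and 48.9 in AD_ABR. Neutrophil markers were 54.77 and 5.097 against 3.602 and 3.358, and T cell markers 1.607 and 1.986 against 0.3628 and 1.322. B cell markers lay the other way, at 171 and 155 against 183 and 175. The part of these lists in the differences above was not tested.

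Both sensors of viral RNA passed as lower in smooth muscle-like cells. The call was lost in 5 of 14 alternatives for Ddx58 and in 4 of 14 for Ifih1. Ddx58, which encodes RIG-I, was at 16.2 and 14.2 in AD and 11.6 and 8.25 in AD_ABR (-0.53 ± 0.16, adjusted p = 0.0363, edgeR), but without AD_ABR 2 the difference was -0.32 (adjusted p = 0.421). Ifih1, which encodes MDA5, was at 4.55 and 2.85 against 1.71 and 1.32 (-1.14 ± 0.30, 0.0159). The effectors Oasl1 (2.01 and 0.662 against 0.207 and 0.143) and Rsad2 (4.69 and 1.26 against 0.777 and 0.572) also passed, at log2 fold changes of -2.60 and -1.87 and adjusted p of 0.00673 and 0.0410. Oasl1 rested on 15 and 10 UMIs in AD and 8 and 4 in AD_ABR. Ifih1, Oasl1 and Rsad2 were, in at least 1 AD library, within 2 times the level that RNA free in the droplets would give these cells, estimated from genes of other cell types. Without AD 1, Rsad2 was at -0.83 (adjusted p = 0.300), Oasl1 at -1.82 (0.126) and Ifih1 at -0.85 (0.0964). Rsad2 was also lost with the doublets kept (adjusted p = 0.132). Bst2 was the member that rose, from 38.0 and 49.4 to 60.3 and 61.2 (0.53 ± 0.13, 0.0117), and without AD 1 its difference was 0.34 (0.107).

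**Figure D4:**
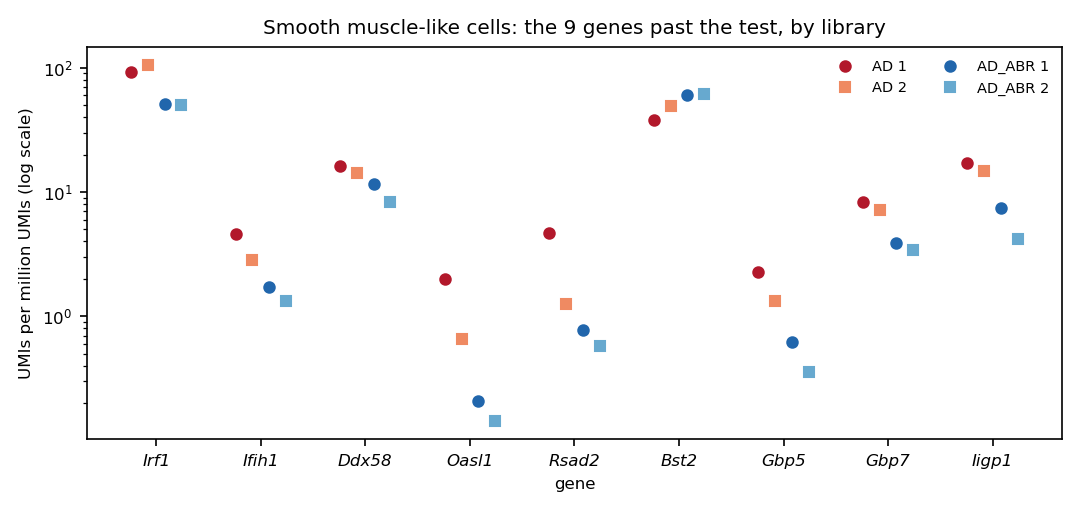
Levels (CPM, log axis) in smooth muscle-like cells of the 9 members past the test, 1 point per library. In 8 of them both AD_ABR libraries lie below both AD libraries, for Irf1 at 50.8 and 49.8 against 92.3 and 106, and Bst2 lies the other way. The genes were picked by the test on these same libraries, so this order is not separate support.

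Other members of the response did not pass in smooth muscle-like cells. Isg15 was at 10.2 and 11.1 in AD and 14.8 and 7.14 in AD_ABR (log2 fold change 0.12, adjusted p = 0.881), and Irf9 at 11.0, 10.7, 11.0 and 8.79 (-0.05, 0.847). Stat2 (9.11, 6.88, 5.96 and 5.54; adjusted p = 0.184), Irf7 (1.74, 2.98, 1.89 and 1.75; 0.426) and Irf8 (adjusted p = 0.0837) did not pass. By role, 1 of 5 transcription factors, 2 of 3 sensors, 2 of 16 effectors tested and 3 of 7 GTPases fell. Of the effectors, 1 rose. Over all genes tested there, 8.29% passed lower and 7.19% higher. Both effectors that fell and 1 of the sensors were near the level that free RNA gives.

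Fibroblast-like cells had 4 members that fell and 0 that rose among 38 tested, where 10.7% of all 16335 genes passed (5.59% lower, 5.14% higher). The members' median was 0.14, beside -0.01 for all genes, and 14 of the 38 were below 0. The class joins clusters 2, 3, 4, 5 and 22 in shares that differ between groups: cluster 4, led by C1qtnf3 and Ptx3, supplied 442 of the 1523 cells of AD 1, 1282 of the 3241 of AD 2, 266 of the 2582 of AD_ABR 1 and 597 of the 3826 of AD_ABR 2. Ifit1 was at 44.0 and 30.2 CPM in AD and 22.3 and 22.1 in AD_ABR (-0.70 ± 0.17, adjusted p = 0.0460, edgeR). Gbp5 was at 6.22 and 7.07 against 2.66 and 3.71 (-1.03 ± 0.22, 0.0329). Ifih1 was at 21.1 and 20.96 against 15.9 and 14.7 (-0.43 ± 0.11, 0.0485), and Oasl1 at 4.62 and 2.16 against 0.553 and 0.880 (-2.13 ± 0.45, 0.0303), the last near the level that free RNA gives. Within cluster 4 the groups overlapped for Ifit1 (78.8 and 35.7 CPM in AD, 36.5 and 47.4 in AD_ABR) and for Ifih1 (22.6 and 23.6 against 19.7 and 26.4), and not for Gbp5 (8.58 and 8.21 against 2.79 and 6.37). The Ifih1 and Ifit1 calls were each lost in 7 of 14 alternatives, and without AD_ABR 1 the count of lower members was 1. DESeq2 called 2 members higher, where it called 825 of 15406 genes higher and 849 lower. Bst2, at 117 and 198 in AD and 363 and 292 in AD_ABR (1.08 ± 0.28, 0.0773), did not pass with edgeR.

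In endothelial-like cells Irf1 fell, and it was the 1 member of 30 to pass (3.88% of 10900 genes passed, 2.68% lower and 1.2% higher). It stood at 281 and 422 CPM in AD and 137 and 129 in AD_ABR (-1.43 ± 0.20, adjusted p = 0.00469, edgeR). The groups did not overlap, and without AD_ABR 2 the adjusted p was 0.117. The count of lower members changed with a library left out. Irf8, at 5.71 and 5.93 against 1.45 and 1.59, did not pass (-1.93 ± 0.54, 0.0771). Irf1 also passed in cluster 10, an unnamed cluster led by Rgs5 and Prss12, at 150 and 136 against 99.0 and 104 (-0.53 ± 0.13, 0.0498). That cluster had 17 members tested and 1.87% of 11018 genes past the test (1.01% lower, 0.862% higher), and the call was lost in 7 of 12 alternatives.

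In macrophage-like cells 0 of 39 members passed, where 0.00926% of genes passed. An unadjusted p under 0.05 in edgeR was held by 12 members, and by 1553 of all 10804 genes. DESeq2 called 5 members lower, where it called 97 of 9205 genes lower and 36 higher. The counts changed with a library left out. Ifit2 was at 287 and 238 CPM in AD and 98.5 and 57.2 in AD_ABR (-1.85 ± 0.30, adjusted p = 0.2, edgeR), and Rsad2 at 585 and 969 against 292 and 181 (-1.78 ± 0.32, 0.2). Iigp1 lay the other way, at 3.96 and 13.1 against 30.8 and 31.8 (2.05 ± 0.48, 0.205), with the AD values near the level of free RNA. The summed dendritic markers in these cells were 5531 and 3658 in AD and 12008 and 11599 in AD_ABR, and their part in these differences was not tested. At a coarser clustering, whose macrophage-like class held 1802, 964, 452 and 979 cells, 4 members were lower, Ifnb1 among them (-1.28, adjusted p = 0.00904, edgeR), and 9 higher. Of all 12128 genes tested in that class, 503 passed lower and 465 higher. In cluster 11 alone, an analysis added after the data were seen, Ifih1 (-1.26, adjusted p = 0.00569, edgeR), Rsad2 (-1.92, 0.0064) and Gbp5 (-1.43, 0.0361) were lower and Iigp1 (1.42, 0.041) higher. Of all 9092 genes tested in that cluster, 149 passed lower and 78 higher. Effectors had a median of -0.29 in the class and GTPases of 0.57, beside -0.01 for all genes.

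Cluster 7 had 2 members that rose, both guanylate-binding proteins, among 38 tested (4.02% of 10411 genes passed, 2.17% lower and 1.85% higher). Gbp2 was at 9.88 and 9.85 CPM in AD and 33.0 and 50.4 in AD_ABR (2.12 ± 0.25, adjusted p = 0.00126, edgeR). Gbp3 was at 11.6 and 20.4 against 55.3 and 54.9 (1.81 ± 0.26, 0.00352). Both missed the threshold without AD_ABR 2, as did Gbp3 without AD_ABR 1. The make-up of the cluster differed between groups: its summed macrophage markers were 7005 and 9166 in AD and 14774 and 14955.5 in AD_ABR, and its summed dendritic markers, which include class II antigen presentation genes, 2099 and 3009 against 19033 and 14588.5. The part of these markers in the result was not tested.

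In dendritic-like cells Ifit3, a partner of Ifit1, fell, as the 1 of 37 members tested (1.84% of 9656 genes passed, 1.13% lower and 0.715% higher), from 32.5 and 20.6 CPM to 6.44 and 7.86 (-1.96 ± 0.38, adjusted p = 0.0190, edgeR). It missed the threshold with the doublets kept (-1.52, adjusted p = 0.152) and with DESeq2 (0.0708). Isg15 was at 542 and 249 against 91.2 and 119 (-2.003 ± 0.44, 0.140). Proliferating cells, a mixture of lineages, had 4 members that rose among 39 (7.76% of 13135 genes passed, 3.01% lower and 4.75% higher): Irf9, Irf8, Bst2 and Rtp4. Bst2 was at 62.3 and 110 against 269 and 241 (1.54 ± 0.30, 0.0363) and Irf8 at 6.14 and 12.6 against 32.9 and 51.4 (2.15 ± 0.43, 0.0397). Irf9 was at 11.0 and 12.4 against 26.2 and 26.1 (1.13 ± 0.25, 0.0497) and Rtp4, which encodes a receptor transport protein, at 3.30 and 8.41 against 27.0 and 34.6 (2.37 ± 0.49, 0.0428). None of the 4 passed without AD 1 or without AD_ABR 2. The cells of AD_ABR 1 stood apart in depth, with a median of 1214 UMIs against 11886 in AD_ABR 2 and 29192 and 18184 in AD, and the ratio by which markers of other cell types reached this class was 0.134 and 0.206 for the AD libraries against 0.307 and 0.186 for AD_ABR. Summed macrophage markers there were 459 and 693 in AD and 2794 and 7464 in AD_ABR, with none of the 8 at 0, and the part of these measures in the result was not tested.

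**Figure D5:**
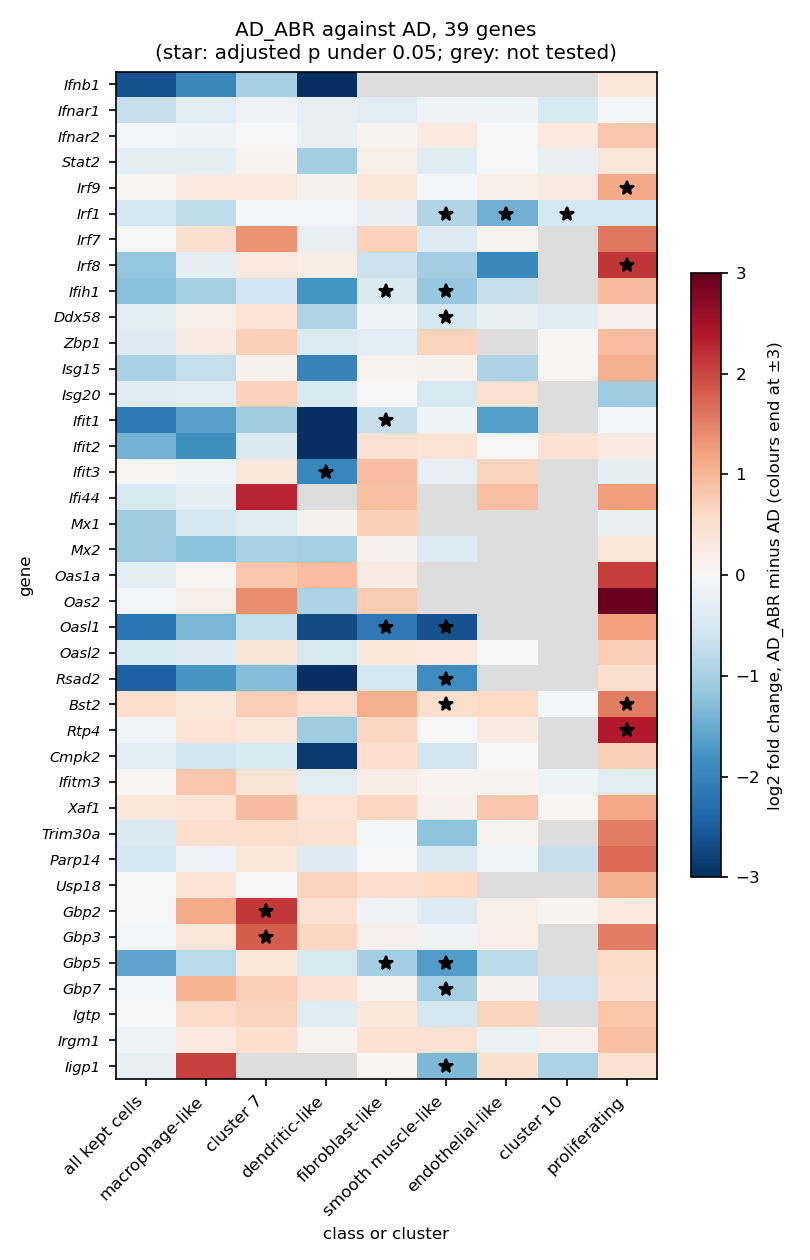
Log2 fold change (AD_ABR minus AD) of the 39 members in all kept cells and in the 8 classes or clusters tested, with stars for adjusted p under 0.05 and grey where a gene was too low to test. Smooth muscle-like cells hold 9 stars, all kept cells and macrophage-like cells none.

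Whether effects differed between classes was tested directly against smooth muscle-like cells. In fibroblast-like cells 4 of 39 members differed (11% of 17031 genes did): Gbp7 by 1.03 ± 0.21 on the log2 scale (adjusted p = 0.00848, edgeR), Irf1 by 0.68 ± 0.13 (0.00602), Irf7 by 0.97 ± 0.25 (0.0240) and Zbp1 by -1.07 ± 0.28 (0.0281). The count of 4 was near the share of all genes. Irf1 fell more in smooth muscle-like cells than in fibroblast-like cells, and Gbp7 fell in the former but not in the latter. In endothelial-like cells Gbp7 differed, as 1 of 36 members (2.85% of 13382 genes), by 1.08 ± 0.26 (0.0387), a count near that share. In macrophage-like cells Ifit2 differed, as 1 of 39 members (0.273% of 13912 genes), by -2.22 ± 0.27 (0.0308), from 0.40 in smooth muscle-like to -1.85 in macrophage-like cells. The difference for Irf1 between endothelial-like and smooth muscle-like cells was -0.51 ± 0.15 and missed the threshold (adjusted p = 0.0802).

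The wider pathway was followed with 98 further genes. Smooth muscle-like cells had 14 that fell and 3 that rose of 66 tested, where 8.29% of all genes passed lower and 7.19% higher, with a median of -0.28 beside -0.02 for all genes. By role, 2 of 14 signalling genes, 4 of 12 sensing genes and 8 of 26 other induced genes fell, while 2 of the 26 (Ifitm2 and Ifi27) and 1 of 11 genes of MHC class I presentation (H2-D1) rose. Cxcl10, a chemokine that draws T cells, was at 38.0 and 26.5 CPM in AD and 6.94 and 5.54 in AD_ABR (-2.26 ± 0.17, adjusted p = 1.04e-06, edgeR), within the range that free RNA gives. Ifitm1 was at 3.48 and 1.72 against 0.441 and 0.5001 (-2.30 ± 0.41, 0.00105). Cd274, which encodes the checkpoint ligand PD-L1, was at 2.14 and 1.52 against 0.441 and 0.5001 (-1.84 ± 0.41, 0.00504), and Slfn5 at 3.62 and 2.71 against 1.06 and 0.750 (-1.67 ± 0.33, 0.00217). Of the 14 that fell, 9 were near the level of free RNA.

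Fibroblast-like cells had 4 of 77 that fell and 7 that rose, where 5.59% of all genes passed lower and 5.14% higher, so the count that fell was near the share of all genes. Cxcl10 was at 287 and 295 CPM in AD and 38.8 and 59.4 in AD_ABR (-2.53 ± 0.21, adjusted p = 0.00325, edgeR), above the level of free RNA. Jak2, a kinase of cytokine receptors, was at 42.1 and 36.8 against 19.3 and 19.2 (-0.995 ± 0.11, 0.00459), and Sting1, the adaptor of cytosolic DNA sensing, at 22.8 and 21.7 against 11.2 and 8.39 (-1.15 ± 0.15, 0.00859). Ifngr1, a chain of the interferon gamma receptor, rose from 78.6 and 82.7 to 120 and 126 (0.64 ± 0.10, 0.0134), and H2-T23 from 51.2 and 51.9 to 95.5 and 80.1 (0.80 ± 0.11, 0.0103). Jak2 and Sting1 also fell over all kept cells, as 2 of 90 tested where 2.4% of all genes passed lower, a count near that share, and Jak2 fell in endothelial-like cells (47.7 and 41.8 against 22.8 and 29.0) and dendritic-like cells (269 and 219 against 144 and 147). Endothelial-like cells had 3 of 68 that fell and 2 that rose (2.68% of all genes lower, 1.2% higher), and there H2-K1, a class I heavy chain, was at 944 and 1019 against 1450 and 1870 (0.74 ± 0.16, adjusted p = 0.0290, edgeR).

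Cluster 7 had 8 of 81 that rose and 1 that fell, where 1.85% of all genes passed higher and 2.17% lower. Its summed macrophage and dendritic markers differed between groups, as given above, and their part in these changes was not tested. Cxcl9, a chemokine induced chiefly by interferon gamma, was at 0.745 and 0.896 CPM in AD and 26.4 and 22.5 in AD_ABR (4.84 ± 0.41, adjusted p = 0.000131, edgeR). Gbp8 was at 0.186 and 0.224, or 1 UMI in each AD library, against 9.08 and 11.2. Cxcl9 and Gbp8 were near the level of free RNA in AD. In that cluster 4 of 11 genes of MHC class I presentation rose, H2-T23 among them (42.7 and 53.1 against 186 and 117; 1.66 ± 0.23, 0.00342). Ikbke, a kinase that activates Irf3, fell from 31.3 and 20.8 to 9.08 and 11.2 (-1.32 ± 0.31, 0.0372). Ifng itself was at 141 and 121 UMIs in all cells of AD and 90 and 99 in AD_ABR, a level of 2.13, 1.38, 1.06 and 1.15 CPM that did not pass (adjusted p = 0.269). In macrophage-like cells 0 of 81 pathway genes passed. An unadjusted p under 0.05 in edgeR was held by 15 of them, and by 1553 of all 10804 genes.

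In classes with too few cells to test, single libraries stood far apart. In lymphatic endothelial-like cells (295, 158, 35 and 25 cells) Ifit1 was at 1639 CPM in AD 1, against 32.8 in AD 2 and 26.8 and 8.88 in AD_ABR. Isg15 was at 997 there, against 77.3, 157 and 35.5, while Bst2 was at 431, 415, 452 and 266. Thinned to 1000 UMIs, 51.9% of these cells in AD 1 held at least 3 effectors, against 7.14, 11.4 and 8%. Natural killer-like cells (109, 37, 6 and 20 cells) had Ifit1 at 2041 and Isg15 at 1924 in AD 1 against 9.64 and 241 in AD 2. These values belong to 1 library each and are not a difference between the groups.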

How the data were processed

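Droplet 3′ single-cell libraries of the ascending aorta were analysed, 2 per group. The authors deposited filtered matrices of UMI counts, with genes in rows and barcodes in columns. Per the submitters' processing notes they used STAR, Cell Ranger 6.0 and Seurat 4.0 with GRCm38, while the file headers name Cell Ranger 7.1.0. Rows with the same symbol were told apart by gene ID (79 duplicated symbols).

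From these counts, barcodes with at least 200 genes and under 20% mitochondrial UMIs were kept. The Scrublet score, run in scanpy 1.11.5, ranked barcodes, and the top 0.8% per 1000 barcodes were removed as doublets (791, 916, 665 and 934), because its own threshold marked 1 barcode in AD 1. Cells were clustered with Leiden (leidenalg 0.10.2, resolution 1.0, 2000 variable genes, 30 principal components, 15 neighbours) without the 137 genes of the interferon lists, giving 27 clusters. Names came from 24 marker lists; a requirement that at least 2/3 of a list be detected was chosen after the clusters were seen. UMIs were summed per library and class, and classes with at least 50 cells in every library were tested with edgeR 4.0.16 (R 4.3.3) by its quasi-likelihood test, with TMM scaling and Benjamini-Hochberg adjustment over all genes tested (adjusted p under 0.05 called), AD_ABR minus AD. Levels are CPM, UMI counts scaled to one total per class and library. Differences between classes were tested as a class by group term with the library as a block. On simulated counts for the smooth muscle-like comparison (14772 genes), 73% of genes changed by 1 on the log2 scale and 92% of those changed by 2 were recovered, and for macrophage-like cells (10804 genes) 19% and 73%.

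The members and gene lists were chosen with earlier results of these data known. Values are named for members past the threshold, Ifnb1, the receptor chains, the transcription factors and the highest members, and for up to 5 pathway genes per class. Alternatives were DESeq2 1.42.0, its size factors, no filter, the replicate block, each library left out, doublets kept, a 10% mitochondrial limit, free RNA taken off and other clusterings; library sizes alone and the resident cluster alone were added after seeing the data. Intervals and floors cover counting error only. A result for 1 gene of the pathway list is not reported here.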

Additional observations from a re-analysis of the deposited data

Results flagged for a closer look

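In 6 cases the difference between AD_ABR and AD was itself different between a class and smooth muscle-like cells, by the class by group term in edgeR's quasi-likelihood test. Ifit2 differed by -2.22 (log2) in macrophage-like cells (-1.85 there, 0.40 in smooth muscle-like cells), and the call was lost without AD_ABR 1 (adjusted p = 0.0509) or AD_ABR 2 (0.328). Gbp7 differed by 1.08 in endothelial-like cells (0.13 against -0.99), which was 0.67 without AD_ABR 2 (adjusted p = 0.508). The same gene differed by 1.03 in fibroblast-like cells (0.10 against -0.99), lost without AD_ABR 2 (0.0997). Zbp1, a sensor of Z-form nucleic acid, differed by -1.07 in fibroblast-like cells (-0.33 against 0.67), lost without AD 2 (0.265) or AD_ABR 2 (0.202). Irf7 differed by 0.97 (0.69 against -0.38), lost without AD 2 (0.125), AD_ABR 1 (0.0866) or AD_ABR 2 (0.143). Irf1 differed by 0.68 (-0.22 against -0.91), lost without AD_ABR 1 (0.0902). No cause was tested.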

How the results depend on the processing

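With 2 libraries per group, leaving one out leaves a group of 1, whose spread is assumed to equal that of the other group. There were 22 calls of a member in a class, and a gene called in several classes counts once for each. Of these calls, 3 (Irf1, Gbp7 and Iigp1 in smooth muscle-like cells) passed in all 14 alternatives, and none of the compared calls reversed. Some of the other calls could be compared in only 12 or 13 alternatives. Counting also the 6 differences between classes, 19 of 28 calls were lost without AD_ABR 2, 11 without AD 1, 11 without AD_ABR 1 and 5 without AD 2. The cause of the changes below was not tested.

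Over all kept cells the count of lower members, 0, became 1 with library sizes alone, 4 with no filter, 9 with DESeq2 and 0 to 13 with a library left out, and that of higher members 0 to 2. In cluster 10 the 1 lower member became 0 with library sizes alone, no filter, DESeq2, the 10% mitochondrial limit and free RNA taken off, and was 0 to 1 with a library left out. In cluster 7 the counts (0 lower, 2 higher) were 4 and 7 with no filter, and 0 to 6 and 0 to 12 with a library left out. In dendritic-like cells the 1 lower became 5 with no filter, 3 with DESeq2, 8 with the replicate block, 0 with doublets kept, 2 with free RNA taken off and 3 to 10 with a library left out, with 0 to 3 higher. In endothelial-like cells (1 lower, 0 higher) they were 5 and 2 with no filter, 5 and 2 with the replicate block, 2 lower at resolution 0.5, and 0 to 7 and 0 to 4 with a library left out. In fibroblast-like cells (4 lower, 0 higher) they were 7 higher with no filter, 2 higher with DESeq2, 7 lower and 12 higher with the block, 0 lower and 1 higher at resolution 0.5, 2 lower with free RNA taken off, and 1 to 4 and 1 to 11 with a library left out. In macrophage-like cells (0 and 0) they were 8 and 4 with no filter, 5 lower with DESeq2, 2 lower with the block, 4 and 9 at resolution 0.5, 3 and 1 in the resident cluster alone, and 0 to 13 and 0 to 7 with a library left out. In proliferating cells (0 and 4) they were 1 and 13 with no filter, 12 higher with the block, 0 higher at resolution 0.5 and 0 to 6 higher with a library left out. In smooth muscle-like cells (8 and 1) they were 4 lower with DESeq2, 5 lower and 4 higher with free RNA taken off, 2 higher with the block and 4 to 13 lower with a library left out.

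The Ifnb1 difference over all kept cells was -1.31 to -3.25 with a library left out. In macrophage-like cells it passed with no filter (-1.91), DESeq2 (-1.92), the replicate block (-1.94, adjusted p = 0.0204) and at resolution 0.5 (-1.28), and was -1.84 to -2.01 with a library left out. In cluster 7 it passed with no filter (-1.04), and was -0.50 to -2.16 with a library left out. The counts of members differing between classes (1 macrophage-like, 1 endothelial-like, 4 fibroblast-like) were 5, 3 and 7 with no filter and 0 to 15, 0 to 4 and 2 to 13 with a library left out.

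Replicate numbers were shared between groups, but nothing in the labels says that they pair the libraries, and same-numbered libraries' deviations correlated at -0.06 to 0.16. The block lost none of the 22 calls compared. Library sizes alone moved the median of all genes over all kept cells from -0.03 to -0.13, and changed the split of all called genes to 65 lower and 76 higher in dendritic-like cells (109 and 69 with TMM) and to 100 and 148 in cluster 10 (111 and 95). Free RNA was not taken off for all kept cells or proliferating cells, and other clusterings were not run for all kept cells and clusters 7 and 10.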
